A study of Mus musculus with 8 samples.

Results

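The regions described here are ATAC-seq peaks that lie near a gene's transcription start site but outside its core promoter, in mouse kidney tubuloids. ATAC-seq measures how open chromatin is, because the Tn5 transposase inserts sequencing adapters mainly into DNA that is not wrapped in nucleosomes. A peak was taken when the deposited table gave it a gene symbol and put its centre more than 1000 bp from that gene's start. This held for 414 of 6425 peaks (6.44%), which are called flanking peaks here, and the 3977 peaks with a symbol and a distance up to 1000 bp are called core promoter peaks. The tubuloids were grown in Matrigel from dissociated renal cortex of wild-type mice, and the 2 groups were 4 libraries given vehicle and 4 libraries given myoglobin, each taken after 12 h. Myoglobin is the haem protein of muscle, used in this study to injure the tubule epithelium. The animals' age, sex and strain are not stated, and the labels do not tie a library to one of the 4 mice, so p-values measure only the spread between these samples, which may be technical.

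A core promoter is the stretch at a transcription start where RNA polymerase II and the general factors assemble, and in most mammalian genes it stands in open, CpG-rich DNA. Open chromatin a little farther out can be an enhancer close to the gene, an insulator, or the core promoter of an alternative first exon, since many genes begin transcription at several starts. The table measures distance to 1 start per gene, so a flanking peak need not lie far from every start of its gene.

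The flanking peaks belonged to 398 protein-coding genes, of which 16 had 2 such peaks. Distances ran from 1001 to 5155 bp with a median of 2364.5 bp, and 174 peaks lay within 2000 bp. The remaining distances were spread evenly, with 77, 79 and 77 peaks in the next 3 intervals of 1 kb and 7 peaks past 5 kb. Most flanking peaks lay downstream of the assigned start, with 276 (66.7%) inside the gene, 124 (30.0%) upstream and 14 (3.38%) past the gene's end. Whether a peak was exonic or intronic was not analysed here.

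**Figure D1:**
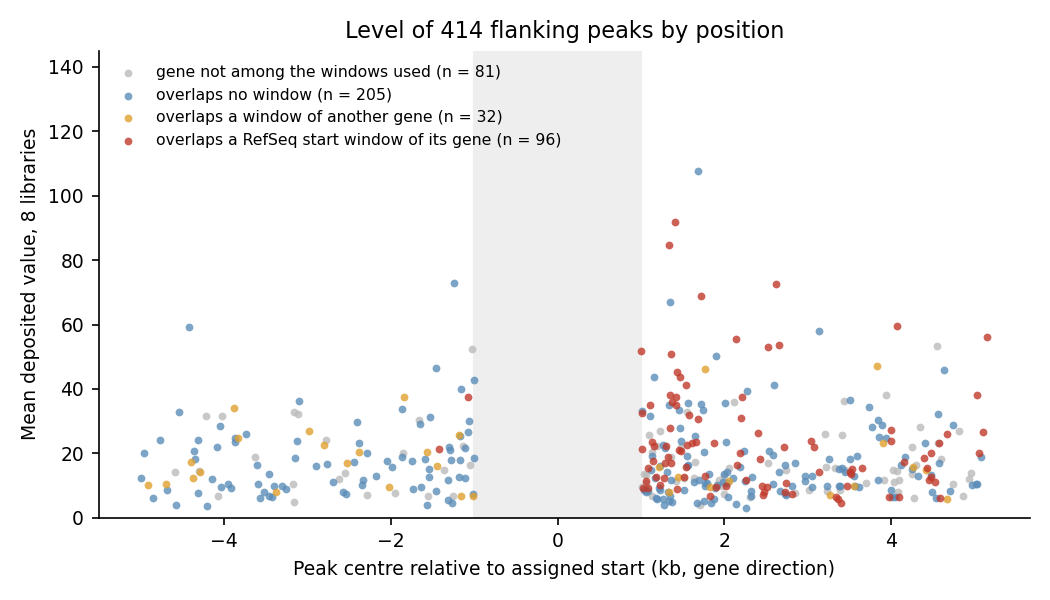
Mean deposited value over the 8 libraries (y axis, the authors' scaled value) for each of the 414 flanking peaks against the position of its centre relative to the assigned start (x axis, kb, positive in the direction of transcription), with the core promoter shaded. Red points overlap a RefSeq start window of their own gene (n = 96). Almost all of them lie to the right, inside the gene, because the assigned start is the gene's outer end.

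The name of the set held only in part when the peaks were laid over promoter windows from RefSeq (GRCm38.p6, the assembly that mm10 names). Each of the 32851 windows runs from 250 bp before to 50 bp after an annotated start, so a gene with several starts can have several windows. The gene assigned to a flanking peak matched a RefSeq symbol for 407 of the 414 peaks and had at least 1 window for 325. Of these 325 peaks, 96 (29.5%) overlapped a window of their own gene. The share for core promoter peaks was 87.2% (2851 of 3271). Flanking peaks with such an overlap are said below to be at an own-gene start or annotated start. Any overlap counted, so the start itself can lie outside the peak, and promoter activity was not measured. A further 32 flanking peaks (7.73% of 414) overlapped the window of a different gene, and 205 overlapped none although their gene had one. The 32 include peaks whose assigned gene had no window, where an own-gene start could not be looked for. The other 81 peaks overlapped no window, had none for their gene and were not classified. Of the 96 peaks at own-gene starts, 94 lay inside the gene and the other 2 upstream. The assigned start is the outer end of the gene, so its other starts lie inside it almost by definition. This count is therefore no finding. Of the 32 peaks at another gene's start, 19 were upstream. In all, 157 flanking peaks (37.9%) were centred within 1000 bp of a start in these windows. The peak assigned to 4930412O13Rik, for example, lay at a start of Gata3, a transcription factor of the distal nephron and collecting duct, and 15 of the 32 overlapped a window of another protein-coding gene, among them Atp5d, Sucla2, Psmd5 and Unc45a.

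The windows under own-gene starts had the base composition of ordinary core promoters. Their median GC content was 63.8%, against 64% for the 2845 windows under core promoter peaks and 52.7% for all windows. The median ratio of observed to expected CpG was 0.791, against 0.816 and 0.384. The sequences below show this at the flanking peaks of 5 genes, and at the Gata3 start. Ing1 and Sin3a were chosen for a high value, Nr3c2 and Aldoa for a place in a gene list, and Cdkl2 because its groups did not overlap. They are the bases before the start that lie inside the peak, from RefSeq, 5′ to 3′ on the gene's strand, and capitals mark matches on either strand to the motifs listed after them. Ing1 encodes a chromatin reader that restrains growth (chr8:11558160-11558409, plus strand). Nr3c2 encodes the mineralocorticoid receptor (chr8:76902080-76902329, plus strand). Sin3a encodes the scaffold of a histone deacetylase corepressor (chr9:57076126-57076331, plus strand). Its start lies outside the peak, and the start of 2700012I20Rik is nearer the peak centre. Aldoa encodes the glycolytic enzyme aldolase A (chr7:126799255-126799504, minus strand). Cdkl2 encodes a protein kinase related to the cyclin-dependent kinases (chr5:92042697-92042829, minus strand). The Gata3 stretch is chr2:9878614-9878836, minus strand, and the Gata3 start also lies outside the peak.
Ing1: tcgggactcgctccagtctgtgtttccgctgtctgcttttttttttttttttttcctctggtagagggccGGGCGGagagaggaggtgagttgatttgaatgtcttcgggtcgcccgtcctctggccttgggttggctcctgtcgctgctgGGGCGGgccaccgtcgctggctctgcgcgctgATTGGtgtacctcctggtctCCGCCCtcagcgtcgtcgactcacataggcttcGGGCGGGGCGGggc
Nr3c2: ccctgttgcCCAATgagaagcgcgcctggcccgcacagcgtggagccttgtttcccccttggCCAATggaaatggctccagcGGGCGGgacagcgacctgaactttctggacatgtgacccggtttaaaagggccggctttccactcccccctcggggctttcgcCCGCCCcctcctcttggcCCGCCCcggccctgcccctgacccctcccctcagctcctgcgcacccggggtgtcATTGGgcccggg
Sin3a: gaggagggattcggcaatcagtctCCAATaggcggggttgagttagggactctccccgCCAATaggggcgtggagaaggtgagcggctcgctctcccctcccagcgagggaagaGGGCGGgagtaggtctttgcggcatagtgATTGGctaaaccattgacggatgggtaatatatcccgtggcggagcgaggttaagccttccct
Aldoa: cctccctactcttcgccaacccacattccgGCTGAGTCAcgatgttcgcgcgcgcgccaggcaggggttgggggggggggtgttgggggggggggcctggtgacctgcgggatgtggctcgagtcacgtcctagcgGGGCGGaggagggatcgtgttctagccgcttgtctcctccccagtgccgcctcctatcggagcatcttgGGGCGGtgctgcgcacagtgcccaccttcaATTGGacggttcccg
Cdkl2: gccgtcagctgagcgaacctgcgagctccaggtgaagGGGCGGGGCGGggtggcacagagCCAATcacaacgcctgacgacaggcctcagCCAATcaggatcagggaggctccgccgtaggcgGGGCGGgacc
Gata3: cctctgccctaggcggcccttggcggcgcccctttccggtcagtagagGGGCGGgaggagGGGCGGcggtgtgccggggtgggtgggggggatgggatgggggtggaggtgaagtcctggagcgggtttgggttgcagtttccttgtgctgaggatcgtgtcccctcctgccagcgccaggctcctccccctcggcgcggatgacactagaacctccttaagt

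GC boxes led the motifs found. Motifs were matched exactly on both strands, over each whole window of 300 bases. The GC box (GGGCGG, read by Sp1-type factors, CCGCCC on the other strand) was in 81.3% of the 96 own-start windows, 79.3% of core promoter windows and 35.7% of all windows. The CCAAT box (CCAAT, or ATTGG, bound by NF-Y) was in 45.8%, 51.8% and 37.4%. TATAAA was rarer, in 4.17%, 3.76% and 13.6%. In the printed stretches, Ing1 held 5 GC boxes and 1 CCAAT box, Nr3c2 held 3 of each, and Sin3a held 1 GC box and 3 CCAAT boxes. Aldoa alone of the 6 held a match to the NRF2 response element (TGACNNNGC), the site of the oxidative stress regulator NRF2, and it overlapped a match to the AP-1 motif (TGANTCA). The NRF2 letters were in 17.7% of own-start windows, 17.4% of core promoter windows and 12.4% of all windows. AP-1 letters were in 2.08%, 4.39% and 7.81%. The E-box CACGTG was in 12.5%, 10.5% and 7.15%, and the ETS motif CCGGAAGT in 7.29%, 8.51% and 3.89%. The cAMP response element TGACGTCA was in 1.04%, 3.83% and 1.79%, and the NRF1 motif (the inverted repeat of GCGCA with no gap) in 1.04%, 2.53% and 0.971%. The glucocorticoid response element (the inverted repeat of GNACA across 3 bases) was in 0 of the 96 own-start windows and in 0.475% of all windows. A match is a run of letters and not a shown binding site.

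Flanking peaks were somewhat lower than core promoter peaks, and this went with their width. Values are the authors' scaled values, rounded to whole numbers, so that libraries have near-equal totals. The median flanking peak had a mean value of 15.4 over the 8 libraries and a width of 186.5 bp, against 17.5 and 224 bp for core promoter peaks, and 12.8 and 172 bp for the 1648 peaks with no assigned gene. In every library the median over flanking peaks was below that over core promoter peaks, with a ratio between 0.833 and 0.941 (mean log2 ratio -0.16; exact sign-flip test over 8 libraries, p = 0.00781, the smallest possible, adjusted p = 0.0195 over 5 tests). Per 100 bp of peak the order turned, with ratios from 0.982 to 1.07, above 1 in 7 of 8 libraries (mean log2 ratio 0.04, exact sign-flip p = 0.0313). These tests run over libraries of a fixed set of peaks, not over peaks.

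Own-gene starts stood above the other flanking peaks. The 96 peaks there had a median of 20.1 and a width of 234.5 bp, against 14.1 and 174 bp for the 205 that overlapped no window, and 15.4 and 191.5 bp for the 32 at another gene's start. By library, the ratio of the own-start median to the no-window median ran from 1.13 in myoglobin replicate 3 to 1.43, above 1 in 8 of 8 libraries (mean log2 ratio 0.44; exact sign-flip p = 0.00781, adjusted p = 0.0195). It was 0.26 over peaks with a mean of at least 10 and 0.22 over those beyond 2000 bp. Per 100 bp the ratio was above 1 in 7 of 8 libraries, from 0.98 to 1.13. Its mean log2 was 0.08 (exact sign-flip p = 0.0234), so most of the difference per peak went with width. Any overlap counted as an own start, and a wider peak meets a window more easily. How much of the differences in width and value came from this rule was not tested. The own-start comparison was not part of the original plan. A value of at least 50 was reached by 11 of the 96 own-start peaks (11.5%) and by 6 of the 205 with no window (2.93%).

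**Figure D2:**
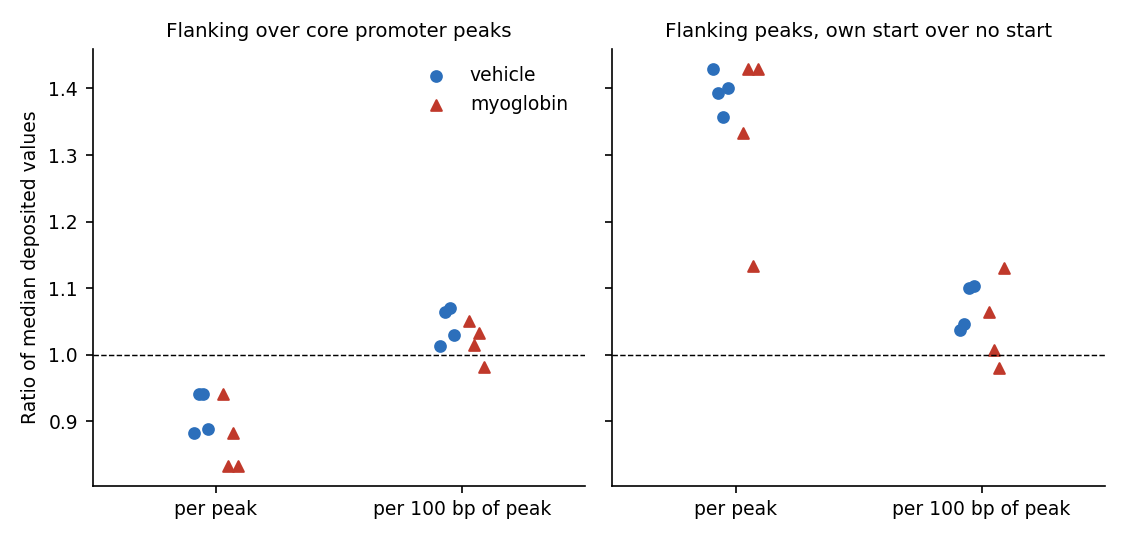
Ratio of median deposited values in each library (4 vehicle, circles, and 4 myoglobin, triangles), per peak and per 100 bp of peak, with the dashed line at 1. Flanking peaks fell below core promoter peaks per peak (0.833 to 0.941) and close to 1 per 100 bp (0.982 to 1.07), and own-start peaks stood above the flanking peaks that overlapped no window in 8 of 8 libraries per peak.

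The tallest flanking peaks sat at genes of several kinds. That of Clec11a, a secreted growth factor gene (chr7:44304797-44305629, 1689 bp inside the gene, no window overlapped), had vehicle values of 103, 119, 135 and 103 and myoglobin values of 106, 96, 91 and 109. Slc27a1, a long-chain fatty acid transporter gene (chr8:71569835-71570735, own start), had 90, 98, 107 and 93 with vehicle and 86, 70, 97 and 93 with myoglobin. In both the groups overlapped. Tsga10, a testis-linked gene (chr1:37864779-37865410, own start), followed at 84.8 on average. Then came Fbrs (72.8), Ing1 (72.6), Rps6ka5 (68.9), which encodes the histone kinase MSK1, Mnt (67.1), a repressor that pairs with MAX, and Sin3a (59.6). Of these 8, Slc27a1, Tsga10, Ing1, Rps6ka5 and Sin3a were at an annotated start of their own gene. The Sin3a peak also overlapped a window of 2700012I20Rik, whose start lay 67.5 bp from the peak centre, against 259.5 bp for the Sin3a start. Its height can therefore not be assigned to Sin3a alone. At the other end, 108 of 414 flanking peaks had a mean value under 10, where a single read is a large part of the value.

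Some genes with a flanking peak also had a core promoter peak. A core promoter peak of the same gene was present for 75 flanking peaks of 72 genes, among 398 genes in all, and absent for 339 peaks. The share to expect for any gene was not computed, so this count is no result about these genes. Within a gene the core promoter peak was the higher in 43 cases and the flanking peak in 32, with a median flanking-to-core ratio of 0.796. The range was wide. At Eif5a, a translation factor gene, the flanking peak averaged 4.38 and the core peak 47.1, a ratio of 0.0928. At Spred2, an inhibitor of Ras signalling, the order was opposite, with 28.6 at 4049 bp upstream and 4 at the assigned start, a ratio of 7.16. Fbrs (72.8 against 13, ratio 5.60), Setd5 (42.8 against 10.4, ratio 4.12) and the epithelial splicing regulator Esrp2 (46.1 against 11.8, ratio 3.93) also had the higher flanking peak. The Esrp2 flanking peak overlapped the start window of a different gene, as did 6 of the 75 in all. For Ing1 the printed start (72.6) stood above the peak at the assigned start (41, ratio 1.77). Spred2, Setd5 and Esrp2 were among the widest ratios of the 75 and were picked after their values were seen.

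**Figure D3:**
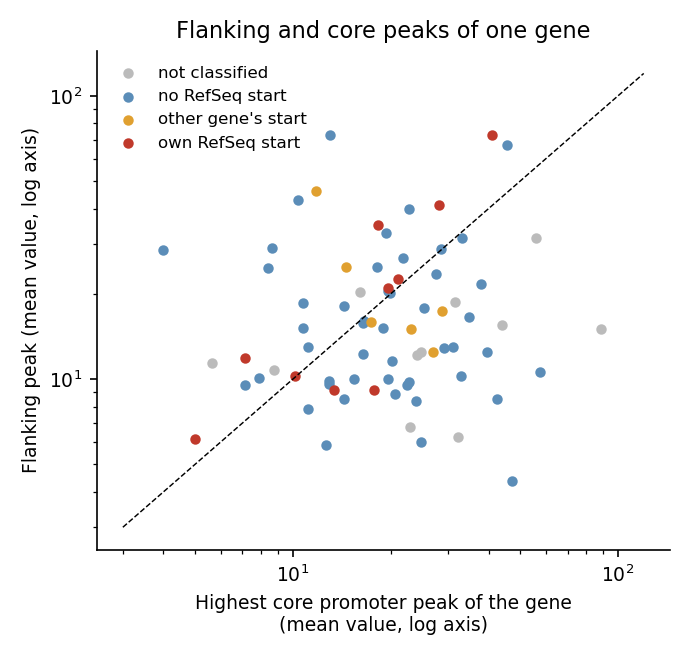
Mean deposited value of each of 75 flanking peaks (y axis) against the highest core promoter peak of the same gene (x axis), both on log axes, with the line of equality. Points lie on both sides, with 43 below the line and 32 above it.

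In the genes with 2 flanking peaks, the 2 were often of unlike height. Sin3a had 59.6 at the peak of its printed stretch and 25.3 at 1653 bp. Mamstr, a muscle transcription cofactor gene, had 34.4 inside the gene and 6.75 upstream, where the peak overlapped the window of A030001D20Rik. Arhgef1, a RhoA activator, had 35.9 at its own start 1375 bp in and 8.38 at 4712 bp. Ddr1, a collagen receptor, had 32.3 and 6.63, and Pex16, a peroxisome assembly gene, had 36.3 and 16.5. In Ap5s1 (29.9 and 14.1), Ywhaz (28.1 and 15.9), Crlf2 (23.9 and 13.5), Smtn (16.9 and 9.75) and Chdh (13 and 7.88) the higher peak was again well above the lower. Smad6, an inhibitor of bone morphogenetic protein signalling, had a closer pair (18.5 and 15.1), and the pair of Zc3h12a was near equal (9.88 and 9.63). These values are per peak and take no account of width. The higher peak was also the wider in Sin3a (430 and 220 bp), Arhgef1 (261 and 107 bp) and Crlf2 (390 and 228 bp). In Chdh the widths were closer, at 144 and 129 bp.

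Myoglobin changed 1 flanking peak past the threshold. Differences were fitted with limma on log2(value + 1) over all 6425 peaks, with Benjamini-Hochberg adjustment, and a peak is called at an adjusted p under 0.05. Among flanking peaks 1 of 414 was called higher, where 0.202% of all peaks were, and 0 were called lower, where 0.0467% of all peaks were (both directions, 0.249% of all peaks). At an unadjusted p under 0.05 there were 26 flanking peaks (6.28%), against 7.6% of all peaks, with 13 higher (background 3.67%) and 13 lower (background 3.92%). Groups did not overlap at 16 flanking peaks (3.87%, against 3.04% of all peaks), 5 higher (background 1.45%) and 11 lower (background 1.59%). The median log2 difference was -0.05 over flanking peaks and -0.02 over all peaks. Among flanking peaks 181 lay above 0 (43.7%, against 47.2% of all peaks) and 233 below. Lower peaks without overlap, 11 of 414, were more frequent than in the whole table, a difference that was not tested. The other counts of called, low-p and non-overlapping peaks lay near those of the whole table.

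The called peak was in Olfr1423, an olfactory receptor gene (chr19:12036206-12036375, 5026 bp inside the gene from the assigned start). Its values were 1, 1, 4 and 4 with vehicle and 20, 23, 15 and 16 with myoglobin. Every myoglobin library was above every vehicle library. On the log2(value + 1) scale, which understates changes from low values, the difference was 2.61 ± 0.40 (SE; limma adjusted p = 5.91e-06). An estimate of the reads behind the values gave at most 14 over the vehicle libraries and 58 over the myoglobin libraries. With the vehicle reads at that upper figure, the depth-corrected ratio was 7.001 (95% interval 3.86 to 13.6, counting error only). Fewer vehicle reads would raise the ratio and its interval. The peak centre lay 449.5 bp from the nearest Olfr1423 start in the RefSeq windows. The other 6 peaks within 1 Mb did not share the rise, with log2 differences from -0.55 to -0.08 and a median of -0.19. The call was kept in every alternative fit that was run, with log2 differences from 2.39 to 2.83 when 1 library was left out. Its size depended more on the pseudocount, at 1.66 with 5 and 3.11 with 0.1.

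**Figure D4:**
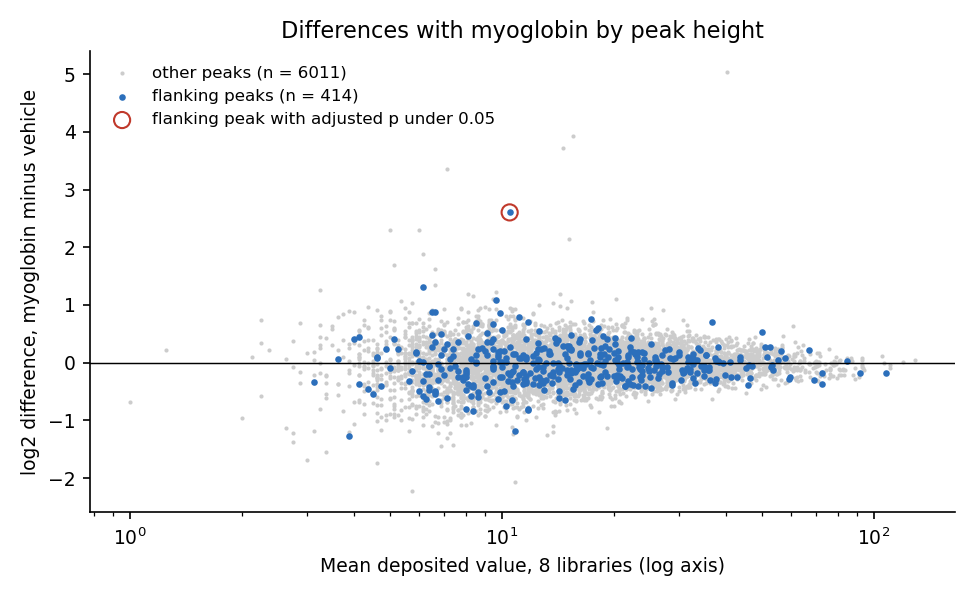
log2 difference of myoglobin minus vehicle (y axis) against the mean deposited value over 8 libraries (x axis, log scale) for 414 flanking peaks (blue) and all other peaks (grey). One flanking peak, that of Olfr1423, is circled as called and lies at 2.61, and the other flanking peaks lie within the cloud of grey points.

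The next flanking peaks were not called. Micall2, which encodes an actin-binding protein that brings junction proteins to the cell surface, had 29, 24, 35 and 23 with vehicle and 41, 41, 58 and 42 with myoglobin (chr5:139732674-139732986). The groups did not overlap, and the log2 difference was 0.70 ± 0.18 (SE; limma adjusted p = 0.0701). With a pseudocount of 5 its adjusted p was 0.0415, and without vehicle replicate 3 it was 0.0480, so the call depended on these choices. Lrp8, a receptor for apolipoprotein E and reelin, had 37, 39, 48 and 40 against 63, 63, 58 and 53, also without overlap (0.52 ± 0.15, limma adjusted p = 0.174). Cdkl2, at its printed start, had 19, 18, 19 and 19 against 28, 26, 21 and 28 (0.43 ± 0.22, limma adjusted p = 0.653). These were the non-overlapping higher peaks with a mean value of at least 10, beside Olfr1423.

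Of the 11 flanking peaks with lower values and no overlap (against 1.59% of all peaks), 7 had a mean value of at least 10, and none of the 11 was called. Rmi2, a partner of the BLM helicase in DNA repair, had 16, 14, 20 and 11 with vehicle and 10, 3, 7 and 6 with myoglobin (log2 difference -1.18 ± 0.34, limma adjusted p = 0.185). Rasd2, a Ras-like GTPase gene, stood at -0.82 and the centriole gene Cenpj at -0.61, with 19, 21, 17 and 13 against 10, 12, 11 and 11 for Cenpj. Src, the tyrosine kinase gene, had 50, 47, 61 and 51 against 39, 40, 39 and 41. Its myoglobin values were close together and all below the vehicle range, and the log2 difference was -0.38 ± 0.15 (limma adjusted p = 0.565). Tnrc18 stood at -0.37, Zbtb7b, a zinc-finger repressor gene, at -0.35 and Ing1 at -0.17. For Ing1 the values were 76, 76, 82 and 74 against 69, 72, 63 and 69.

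Zc3h12a, which encodes Regnase-1, a ribonuclease that degrades inflammatory messenger RNAs, had 2 flanking peaks 180.5 bp apart inside the gene. The peak at 3054 bp had 1, 7, 10 and 8 with vehicle and 9, 14, 17 and 11 with myoglobin. The peak at 3235 bp had 5, 6, 7 and 8 against 17, 12, 17 and 7. The groups overlapped at both. The log2 differences were 1.09 ± 0.39 and 0.87 ± 0.35 (limma adjusted p = 0.436 and 0.556), and that of the gene's core promoter peak was -0.20. Without vehicle replicate 1, where the value was 1, the difference at 3054 bp was 0.54, and with a pseudocount of 5 it was 0.68. The 2 peaks are neighbours in the same libraries and are not independent.

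**Figure D5:**
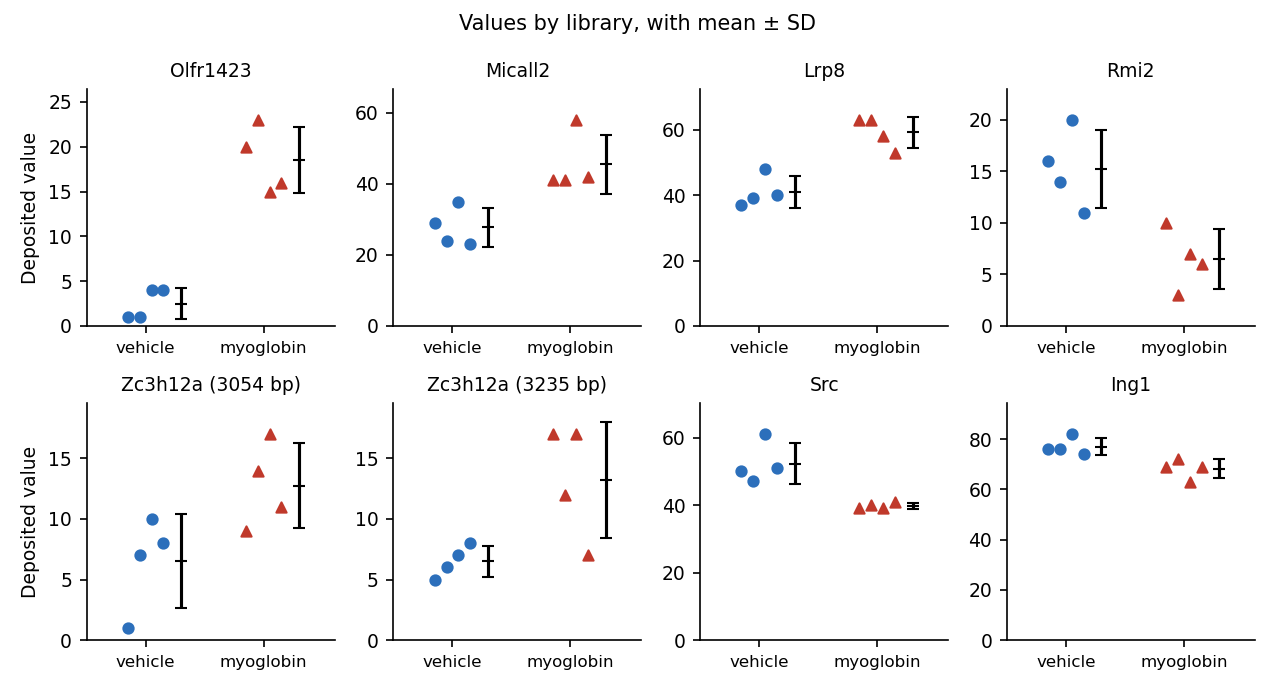
Deposited value (y axis) in each of 4 vehicle and 4 myoglobin libraries, with mean ± SD, for 8 flanking peaks. Groups are apart at Olfr1423, Micall2, Lrp8, Rmi2, Src and Ing1 and overlap at both Zc3h12a peaks.

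The share of all signal in flanking peaks hardly differed between groups. It was 6.44% ± 0.125 with vehicle and 6.30% ± 0.0560 with myoglobin (SD, n = 4 each), a difference of -0.134 percentage points (two-sided p = 0.114 by exact permutation over 70 assignments, adjusted p = 0.191 over 5 tests). Without vehicle replicate 1 the difference was -0.191 (exact permutation p = 0.0286). Libraries ran from 6.25% to 6.56%. The flanking-to-core ratio was 0.913 ± 0.0322 with vehicle and 0.873 ± 0.0513 with myoglobin (exact permutation p = 0.314). The own-start to no-window ratio was 1.40 ± 0.0294 and 1.33 ± 0.139 (exact permutation p = 0.629). Both ratios are coarse, because they come from medians of whole numbers. By library the median was 15 or 16 for flanking peaks and 17 or 18 for core promoter peaks. The own-start median was 17 in myoglobin replicate 3 and 19 to 21 in the other libraries.

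Genes from 18 lists on kidney injury, stress responses and cell types were looked up among the assigned genes of the flanking peaks. Only 6 lists had a member there, with 13 peaks, and 0 were called by limma (against 0.249% of all peaks), 0 had an unadjusted p under 0.05 (against 7.6% of all peaks) and the lowest adjusted p was 0.684. With so few peaks these counts are no result about the lists. Their log2 differences ran from -0.40 to 0.41 with a median of -0.04, against -0.02 over all peaks. Among genes of haem, iron and NRF2, only Fth1, the ferritin heavy chain gene that stores iron, had one, at an own start, with 6, 11, 12 and 10 against 11, 14, 6 and 9 (0.02 ± 0.34). From the glucocorticoid targets and receptors came Nr3c2, with 57, 54, 55 and 58 against 47, 50, 60 and 48 (-0.13 ± 0.14), and the metallothionein gene Mt1 (-0.12). The Mt1 peak overlapped the start window of a different gene. Jun (-0.08), Egr1 (-0.21), Junb (0.05) and Klf10 (-0.04) were the immediate early genes. Glycolytic and hypoxia genes were Ldha (-0.40 ± 0.22), Aldoa (0.05 ± 0.17) and the glucose transporter gene Slc2a1 (-0.03). Aldoa had 40, 42, 41 and 46 against 30, 50, 60 and 40, so the myoglobin libraries were spread on both sides of the vehicle range. The tubule regulators were Tfap2a (0.18) and Grhl2 (-0.15), and the junction gene was Cldn4, a claudin of the collecting duct (0.41 ± 0.54, at values of 1 to 10). The Cldn4 difference ran from 0.0404 without myoglobin replicate 4 to 0.71 without vehicle replicate 2.

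The other 12 lists had 0 flanking peaks by assigned gene, among them tubule injury and repair, NF-kB and inflammation, heat shock, p53 targets and fat oxidation. No marker of proximal tubule, distal nephron, endothelium, fibroblasts, immune cells or podocytes was the assigned gene of a flanking peak. The lookup missed Gata3, a marker on the distal list, because the flanking peak at its start was assigned to 4930412O13Rik. Core promoter peaks were found at 1 proximal and 1 distal marker gene and at none of the other 4 types. The tubule epithelium named by the labels was therefore not checked from flanking peaks. In bulk samples, fewer cells of a type and less accessibility per cell cannot be told apart.

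Peaks lay close to the distance limit on both sides, although most peaks with a symbol were below it (3977 against 414 above). Just inside it were the peaks of Smad6 (1001 bp, mean value 18.5), the histone methyltransferase-like gene Setd5 (1002 bp, 42.8) and the phosphatase gene Ppm1b (1007 bp, 51.8). Just outside were Metrnl (984 bp, 5.75), the histone demethylase gene Kdm2a (991 bp, 18.4) and Stau2 (997 bp, 8.75). The farthest were the cell death gene Bmf (5155 bp, 56.1), the transcription factor gene Sp2 (5101 bp, 26.5) and Pgbd5 (5072 bp, 19), of which Bmf and Sp2 were at an annotated start of their own gene.

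Library totals were 124415 to 126782 after the authors' scaling. The reads behind them were estimated from the steps between values, at 130223 to 200180 for vehicle and 67606 to 124453 for myoglobin. Depth therefore moved with the treatment, every myoglobin library being shallower than every vehicle library, and its part in the differences above was not tested. The Olfr1423 call was kept without myoglobin replicates 2 and 3, the shallowest libraries (limma adjusted p = 0.00306).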

How the data were processed

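ATAC-seq was measured in 8 libraries, 4 per group. The deposited table holds 1 value per peak and library, on mm10, and the peaks were called by a step not given in the sources used here. Per the submitters' processing notes, the tools included DESeq2 1.36.0, featureCounts, STAR 2.7.10a, Trimmomatic 0.39 and Picard 3.0.0, and the notes state no role for them. The deposited values were used as a score: the authors had scaled and rounded them to whole numbers, which removes the read depth and any count test. The factor behind each column was estimated from the steps between values.

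Differences were fitted with limma 3.58.1 (R 4.3.3) on log2(value + 1) with a variance trend, treatment as the only term, over all 6425 peaks with no filter. The prior had 78.5 degrees of freedom against 6 residual ones. The fit was tested on simulated data. Library measures used exact permutation (70 assignments) or exact sign flips (256), adjusted over 5 tests. Libraries with equal replicate numbers showed no shared deviation (correlations -0.0132 to 0.0258, against -0.0615 to 0.0386 for unequal numbers). Counting error at low values can hide such sharing, so a pairing is not excluded. RefSeq windows (GRCm38.p6) gave the starts. A peak that overlapped no window was not classified where its symbol was missing from the windows. A synonym of several genes went to the one at the peak. Named peaks were those called, the largest non-overlapping differences with a mean of at least 10 (up to 8 each way), the 8 tallest, those at the distance limits, the 2 list members with the smallest p in each list, and the peaks of genes with 2 flanking peaks. Genes with a predicted or clone name (Gm, Rik) were counted but not described by this rule. Junb, Klf10, Slc2a1, 4930412O13Rik, Spred2, Eif5a, Esrp2, Park7, F11r and the remaining peaks with a mean of at least 50 were named after their values were seen. The members and lists were chosen with earlier results of these data known.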

Additional observations from a re-analysis of the deposited data

Results flagged for a closer look

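In sets of 4 libraries of 1 group, the gap between the highest or lowest library and the nearest other was compared with the range of the set. A gap above Dixon's critical value for 4 samples (95%) was found in 7 of 118 sets, taken over 56 described flanking peaks and 3 library measures (the share of signal and both ratios), where chance gives about 5.9. All 7 were single peaks. At Micall2, myoglobin replicate 3 was at 58 and the others at 41, 41 and 42. At Tnrc18, the same library was low, at 15 against 20 to 21. Myoglobin replicate 4 was high at Pgbd5, at 23 against 17 to 18, and at the Crlf2 peak 1477 bp from the start, at 27 against 21 in each of the others. At the Smtn peak 3562 bp from the start, myoglobin replicate 1 was at 14 and the others at 8 to 9. Among vehicle libraries, replicate 1 was low at the Sin3a peak 1653 bp from the start, at 19 against 32 to 34. At Cdkl2, vehicle replicate 2 was at 18 and the others at 19, a gap of a single unit that is met because the other 3 values are equal.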

How the results depend on the processing

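Olfr1423 was called in each of the 16 alternative fits over all peaks. With a pseudocount of 5 the count of higher flanking peaks was 2, through Micall2 (log2 difference 0.63, limma adjusted p = 0.0415). It ranged from 1 to 2 when 1 library was left out, with 2 only without vehicle replicate 3 (Micall2 at 0.81), and the count of lower peaks was 0 in each alternative. The difference in the share of signal ran from -0.191 to -0.0927 percentage points when 1 library was left out, and only without vehicle replicate 1 did its p pass 0.05, at 0.0286. Per 100 bp of peak, an alternative chosen after seeing the data, the flanking-to-core log2 ratio turned to 0.0449. The own-start to no-window log2 ratio fell to 0.26 over peaks with a mean of at least 10 and to 0.22 beyond 2000 bp, with exact sign-flip p of 0.00781 and 0.0156. The treatment difference in the own-start to no-window ratio ran from -0.0962 to 0.00218 over libraries left out and was 0.00362 for peaks beyond 2000 bp. With a distance limit of 500 bp the calls were the same in number and the share difference was -0.26 (exact permutation p = 0.0571). Over 23 single peaks, 350 of 364 values kept their direction and side of the threshold, 12 turned and 2 newly passed. With 1 library left out, the turned peaks ranged from -0.18 to 0.22 at Fth1, -0.30 to 0.0175 at Mt1, -0.24 to 0.0328 at Jun, -0.10 to 0.22 at Aldoa and -0.37 to 0.0445 at Grhl2. The values that turned at Fth1 were -0.18, -0.04 and -0.15, at Jun 0.0326 to 0.0328, and at Aldoa -0.02 and -0.10. Without myoglobin replicates 2 and 3 together, Aldoa was at -0.28 and Tfap2a at -0.0506. All these were uncalled, and the cause was not tested.

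With the replicate number as a block, 1 flanking peak was called higher and 0 lower, so the block changed no call (Olfr1423 adjusted p = 0.000198, Micall2 0.0801 by limma). The share difference of -0.134 had an exact sign-flip p of 0.25 under this pairing. Same-numbered libraries showed no shared deviation, and a vehicle library correlated best with its own number in 2 of 4 cases. A pairing is not excluded by this.

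Depth limits the precision. Flanking peaks with a mean under 10 (108 of 414) have the largest counting error, and the median standard error over flanking peaks was 0.28 on the log2 scale. Reads estimated from rounded values cover counting error only.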

Other observations

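Values not yet given include the other flanking peaks that reached a mean of 50, besides those described above. Upstream were Stard3, a lipid transfer protein gene (59.3, 4424 bp), and Bhlhe40, a clock-linked repressor gene (52.5, 1026 bp). Inside their genes were Fstl3, which encodes an activin-binding protein (57.9, 3140 bp), Add3 of the membrane skeleton (55.4, 2140 bp), Znf574 (53.4, 4554 bp), Arrdc3 (52.9, 2521 bp) and the NAD kinase gene Nadk (51, 1356 bp). Add3, Arrdc3 and Nadk were at an annotated start of their own gene.

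Beside the Gata3 start, 4930412O13Rik was assigned a second flanking peak (chr2:9879576-9879858), centred 1117 bp from that start. It was the taller of the pair, at a mean of 31.4 against 17.1. At the start, the values were 16, 17, 24 and 18 with vehicle and 18, 18, 7 and 19 with myoglobin.

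Low flanking peaks with a wide difference, chosen after their values were seen, were not called. Park7, which encodes an oxidative stress sensor, had 7, 4, 0 and 4 with vehicle and 9, 6, 9 and 10 with myoglobin at an annotated start 4589 bp inside the gene (log2 difference 1.32 ± 0.48, limma adjusted p = 0.489). F11r, the gene of junctional adhesion molecule A, had 12, 12, 10 and 10 against 4, 6, 7 and 6 (-0.85 ± 0.36, limma adjusted p = 0.575), and its core promoter peak was at 0.30.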
